A study of Mus musculus with 36 samples.

Results

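Th1 cells of the Ets1-SE-KO strain that had been given a retrovirus carrying Ets1 (KO Ets1-RV, 4 libraries) were compared with wild-type Th1 cells given the empty retrovirus (WT EV, 4 libraries), which are 8 of the 36 libraries of the series. The libraries were chosen by their labels and by the run they share, not by any measured value. The question was which RNAs stay different from wild type once Ets1 RNA is back at the wild-type level. Il13 and Gata3, genes of the Th2 fate, and Gzma, a granule protease gene, were higher in KO Ets1-RV cells, while Trdc, the constant region of the delta T cell receptor chain, Iqsec1 and Csf1 were lower.

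KO Ets1-RV cells came from the spleen of mice of the strain C57BL/6J-Ets1-SE-KO, and WT EV cells from the spleen of C57BL/6J mice. The strain name says that a super-enhancer of Ets1 (SE), a dense group of regulatory elements, was deleted, and the sources used here do not give its coordinates. Naive CD4 T cells of both strains were isolated with beads, activated through CD3 and CD28, and kept for 6 days with interleukins 12 and 2, which favour the Th1 fate. The same run held untransduced Th1 cells (2 KO and 2 WT libraries), and another experiment, called the first one here, held Th1 cells without virus (3 KO and 3 WT libraries). The labels give neither the ages of the mice, nor the share of cells that took up virus, nor a sort for such cells. Genotype and viral insert differ together between KO Ets1-RV and WT EV cells, so their parts in a difference cannot be told apart.

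The protein Ets1 belongs to the Ets family of DNA-binding factors and is abundant in lymphocytes. Helper T cells take on fates driven by master factors: Tbx21 (T-bet) leads the Th1 fate with its cytokine interferon gamma (Ifng), and Gata3 leads the Th2 fate with interleukins 4, 5 and 13. In mice, Ets1 is known to work with T-bet in Th1 cells, and cells without Ets1 make less interferon gamma.

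Each library carries a B number and a T number in its title. In both groups the libraries of B number 1 held RNA of the Y-linked gene Ddx3y and at most 1 count of the X-inactivation RNA Xist, and those of B number 2 held Xist and at most 1 count of Ddx3y. Libraries of B number 1 thus came from male mice and those of B number 2 from female mice. Counts were added up within each B number, which leaves n = 2 sums per group, and B number was a block in the fit. The libraries held 2793725 to 4926212 gene counts in KO Ets1-RV and 2360254 to 4830605 in WT EV cells. The share of read pairs left unmapped was 41.9% to 46.4% in KO Ets1-RV and 47.9% to 52.2% in WT EV libraries, without overlap. Levels are CPM, each gene's count relative to the total, scaled by TMM factors, and log2 fold changes are KO over WT.

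Ets1 RNA in KO Ets1-RV cells was at or somewhat above the WT EV level. It stood at 467 and 447 CPM (B number 1) and 384 and 385 CPM (B number 2) in KO Ets1-RV libraries, against 352, 344, 345 and 355 CPM in WT EV libraries. The 4 KO Ets1-RV libraries were all higher, and those of B number 1 were the highest. The log2 fold change was 0.27 (SE 0.13, 95% interval -0.008 to 0.54) and did not pass the threshold of 0.05 (adjusted p = 0.481). In untransduced cells Ets1 was at 221 and 245 CPM in KO and at 379 and 403 CPM in WT libraries (log2 fold change -0.75, adjusted p = 0.0080). Gene counts do not separate RNA of the virus from RNA of the chromosomal gene, and the mean over a culture does not show how Ets1 was spread among its cells.

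Gm27162, a lincRNA gene, had 0 counts in all 4 KO Ets1-RV libraries and 59 counts over the 4 WT EV libraries. Its span in GRCm38 is chromosome 9, 32904937 to 32928966 (minus strand), and that of Ets1 is 32636221 to 32757820 on the same chromosome (plus strand). With 3 counts in the summed KO Ets1-RV libraries as the limit that a count of 0 allows, Gm27162 was at least 19.8-fold lower in KO Ets1-RV than in WT EV cells in raw CPM (adjusted p = 0.0021). It had 0 counts in untransduced KO cells too, at least 11.1-fold below the untransduced WT level. Fli1, an Ets factor gene on the same chromosome, had a log2 fold change of 0.09 (adjusted p = 0.872) and overlapping libraries.

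**Figure D1:**
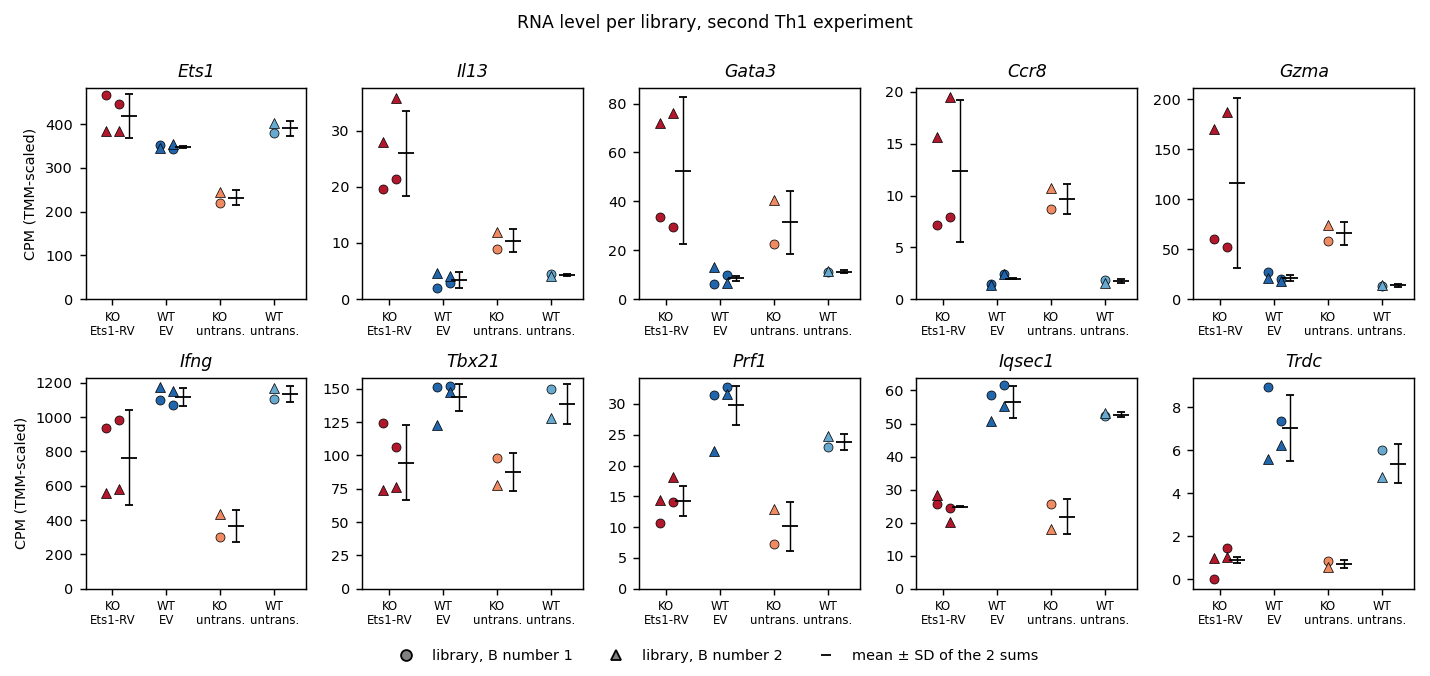
RNA level (CPM, TMM-scaled, vertical axes starting at 0 or just below it) of 10 genes in each library of KO Ets1-RV, WT EV, untransduced KO and untransduced WT Th1 cells. Circles are libraries of B number 1, triangles those of B number 2, and the black mark with bars is the mean ± SD of the 2 sums. Ets1 is at 384 to 467 CPM in KO Ets1-RV against 344 to 355 CPM in WT EV libraries, while Il13, Gata3, Ccr8 and Gzma lie above and Prf1, Iqsec1 and Trdc below WT EV in every library.

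Of 11072 genes tested, 95 (0.858%) passed the threshold, 50 higher (0.452%) and 45 lower (0.406%) in KO Ets1-RV cells. In all 50 higher genes the 4 KO Ets1-RV libraries lay above the 4 WT EV libraries, an order that 6.11% of all tested genes showed. In 41 of the 45 lower genes they lay below, an order shown by 5.36% of all genes. All 50 higher genes were protein coding. The lower ones comprised 31 protein-coding genes, 2 T cell receptor genes, 1 lincRNA and 11 small RNAs. The number passing depended on the WT EV libraries: it was 47 without the sum of B number 1, 45 without that of B number 2 and 54 without the library B2T2 alone. DESeq2 called 37 genes, of which 36 were among the 95.

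Il13 and Gata3 were the genes with the smallest p-values in the comparison, and both were several-fold higher in KO Ets1-RV cells. Il13, which encodes interleukin 13, a Th2 cytokine that acts on mucus, smooth muscle and macrophages, was at 19.6, 21.4, 28.0 and 35.9 CPM in KO Ets1-RV libraries and at 2.05, 2.78, 4.66 and 4.17 CPM in WT EV libraries. Every KO Ets1-RV library was far above every WT EV library, and B number 2 was higher than B number 1 in both groups. The sums averaged 25.95 ± 7.62 CPM in KO Ets1-RV and 3.38 ± 1.39 CPM in WT EV cells (SD, n = 2 each). The log2 fold change of Il13 was 2.99 (SE 0.24, adjusted p = 1.65e-05). Within B number 1 the log2 ratio was 2.86 and within B number 2 it was 2.71, with 0.5 CPM added to both levels.

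Gata3, the zinc finger factor that drives Th2 cells, was at 33.5, 29.7, 72.2 and 76.4 CPM in KO Ets1-RV libraries and at 6.14, 9.74, 13.04 and 6.604 CPM in WT EV libraries. The groups did not overlap, and the KO Ets1-RV libraries of B number 2 held more than those of B number 1. The log2 fold change was 2.49 (SE 0.23, adjusted p = 3.41e-05), with 1.93 within B number 1 and 2.92 within B number 2. Ccr8, a chemokine receptor typical of Th2 and regulatory T cells, was at 7.12, 7.93, 15.6 and 19.5 CPM in KO Ets1-RV libraries, against 1.49, 2.39, 1.40 and 2.43 CPM in WT EV libraries. It too was higher in every KO Ets1-RV library (2.55, SE 0.34, adjusted p = 0.0014). All 3 genes passed under each of the 24 alternative analyses run. In untransduced cells the KO effect was 1.33 for Il13 (adjusted p = 0.0431), 1.47 for Gata3 (0.0080) and 2.58 for Ccr8 (0.0059). For Il13 the log2 fold change of KO Ets1-RV over WT EV exceeded this untransduced KO effect by 1.65 (interval 0.78 to 2.53). For Gata3 it did so by 1.02 (0.28 to 1.77). Neither difference passed the threshold over all genes (adjusted p = 0.601 for Il13 and 0.874 for Gata3).

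The promoters of these 3 genes are shown because the genes rose together. Each line gives the 250 bases before the RefSeq start of transcription (GRCm38.p6, gene strand). Capitals mark the letters CCGGAA, the core that Ets factors favour, or AGATAA, a core that GATA factors favour, on either strand. The windows are chr11:53634703-53634952 (minus strand) for Il13, chr2:9878601-9878850 (minus strand) for Gata3 and chr9:120091883-120092132 (plus strand) for Ccr8.
Il13: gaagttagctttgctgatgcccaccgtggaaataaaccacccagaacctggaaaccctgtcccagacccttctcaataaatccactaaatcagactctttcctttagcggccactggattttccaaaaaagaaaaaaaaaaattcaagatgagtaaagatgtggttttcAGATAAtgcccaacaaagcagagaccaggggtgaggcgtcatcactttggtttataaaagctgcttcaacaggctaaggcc
Gata3: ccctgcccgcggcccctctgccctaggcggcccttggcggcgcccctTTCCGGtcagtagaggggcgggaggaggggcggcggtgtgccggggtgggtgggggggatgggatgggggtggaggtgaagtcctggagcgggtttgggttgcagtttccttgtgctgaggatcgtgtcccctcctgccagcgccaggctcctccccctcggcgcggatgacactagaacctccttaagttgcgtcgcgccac
Ccr8: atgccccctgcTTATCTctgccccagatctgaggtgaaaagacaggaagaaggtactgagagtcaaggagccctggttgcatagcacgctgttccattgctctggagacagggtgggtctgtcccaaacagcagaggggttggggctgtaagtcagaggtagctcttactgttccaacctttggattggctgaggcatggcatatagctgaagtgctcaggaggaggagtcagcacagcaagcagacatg
The Il13 and Ccr8 windows each hold 1 AGATAA match, beginning 81 and 239 bases before the start, and the Gata3 window holds 1 CCGGAA match 203 bases before the start. Among all 32851 RefSeq windows of this length, 12% held CCGGAA and 9.99% held AGATAA, and of the 27025 genes with a window 13.6% and 11.4% had one that did. Of the 50 higher genes, 37 had a window, and 4 of these genes held CCGGAA and 5 held AGATAA. Of the 45 lower genes, 26 had a window, and 3 held CCGGAA and 0 held AGATAA. These matches describe letters only, not binding.

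Of 19 Th2 programme genes measured, 6 were higher and 0 lower in KO Ets1-RV cells, against 0.452% and 0.406% of all genes, and the median log2 fold change was 0.41 against -0.002 over all genes tested. The 6 were Gata3, Il13, Ccr8, Penk, Il24 and Nfil3. DESeq2 called 5 of the 19, and in edgeR 9 were higher and 1 lower at an unadjusted p under 0.05. This list, like the others, was chosen with earlier results of these data known, and it holds the preset markers Il13 and Gata3. The counts therefore describe the list and do not test it. Penk, which encodes the precursor of enkephalin opioid peptides, was at 453, 486, 312 and 311 CPM in KO Ets1-RV libraries and at 216, 203, 163 and 177 CPM in WT EV libraries. All KO Ets1-RV libraries were higher, those of B number 1 most (log2 fold change 1.02, SE 0.13, adjusted p = 0.0011). Il24, an interleukin 10 family cytokine gene, rose by 0.64 (adjusted p = 0.0214) and Nfil3, a leucine zipper factor gene, by 0.59 (0.0343). The Il24 and Nfil3 calls ended in 4 and 9 of the 24 alternatives, among them leaving out the WT EV sum of B number 1 or 2. Il4 and Il5 were too low to test: Il4 had 26 counts over the KO Ets1-RV libraries and 2 over the WT EV libraries, and Il5 had 10 and 0. Il10, an inhibitory cytokine gene, was at 4.27, 3.23, 9.005 and 5.89 CPM in KO Ets1-RV and at 4.65, 6.56, 4.19 and 4.87 CPM in WT EV libraries, overlapping (0.16, adjusted p = 0.925).

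Of 28 Th1 programme genes measured, 0 were higher and 2 lower in KO Ets1-RV cells, against 0.452% and 0.406% of all genes, with a median of -0.04 against -0.002 over all genes tested. The 2 were Tbx21 and Ccl3. DESeq2 called 0 of the 28, and in edgeR 6 were lower and 1 higher at an unadjusted p under 0.05. Ifng, the gene of interferon gamma, was at 937, 983, 560 and 584 CPM in KO Ets1-RV libraries, against 1097, 1069, 1177 and 1152 CPM in WT EV libraries. The KO Ets1-RV libraries were all lower, those of B number 2 more so, and the log2 fold change of -0.55 (SE 0.20, interval -0.98 to -0.12) did not pass the threshold (adjusted p = 0.304). Over the 24 alternatives it ran from -1.09 to -0.11, and Ifng passed in 3 of them. In untransduced cells Ifng was at 302 and 435 CPM in KO and at 1104 and 1171 CPM in WT libraries (-1.63, adjusted p = 0.0010). The difference between these log2 fold changes, 1.08 (interval 0.47 to 1.70), did not pass the threshold over all genes (adjusted p = 0.874).

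Tbx21, the gene of T-bet, was at 125, 107, 73.8 and 76.1 CPM in KO Ets1-RV libraries and at 151, 152, 123 and 148 CPM in WT EV libraries. The groups overlapped at 1 library each, and the decrease was -0.63 (SE 0.14, adjusted p = 0.0416). Its call ended in 10 of the 24 alternatives, with adjusted p = 0.405 without the WT EV sum of B number 2, 0.101 without that of B number 1, 0.238 without the KO Ets1-RV sum of B number 2 and 0.218 without the block. Without single libraries it was 0.0936 (KO Ets1-RV B1T2), 0.0587 (KO Ets1-RV B2T1), 0.0930 (WT EV B2T2), and 0.0609 or 0.0624 (untransduced WT, B number 1 or 2). Ccl3, which encodes an inflammatory chemokine, was at 38.1, 37.9, 25.0 and 24.6 CPM in KO Ets1-RV libraries and at 50.6, 51.9, 40.5 and 56.3 CPM in WT EV libraries. It lay just inside the threshold (-0.70, adjusted p = 0.0496), and its call ended in 14 of the 24 alternatives, with adjusted p up to 0.366. Its untransduced KO effect was -2.27. Il12rb2, a subunit of the interleukin 12 receptor, was at 501, 519, 510 and 488 CPM in KO Ets1-RV and at 459, 481, 448 and 497 CPM in WT EV libraries, overlapping (0.10, adjusted p = 0.828). Il18rap, of the interleukin 18 receptor, had -0.62 (adjusted p = 0.333).

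**Figure D2:**
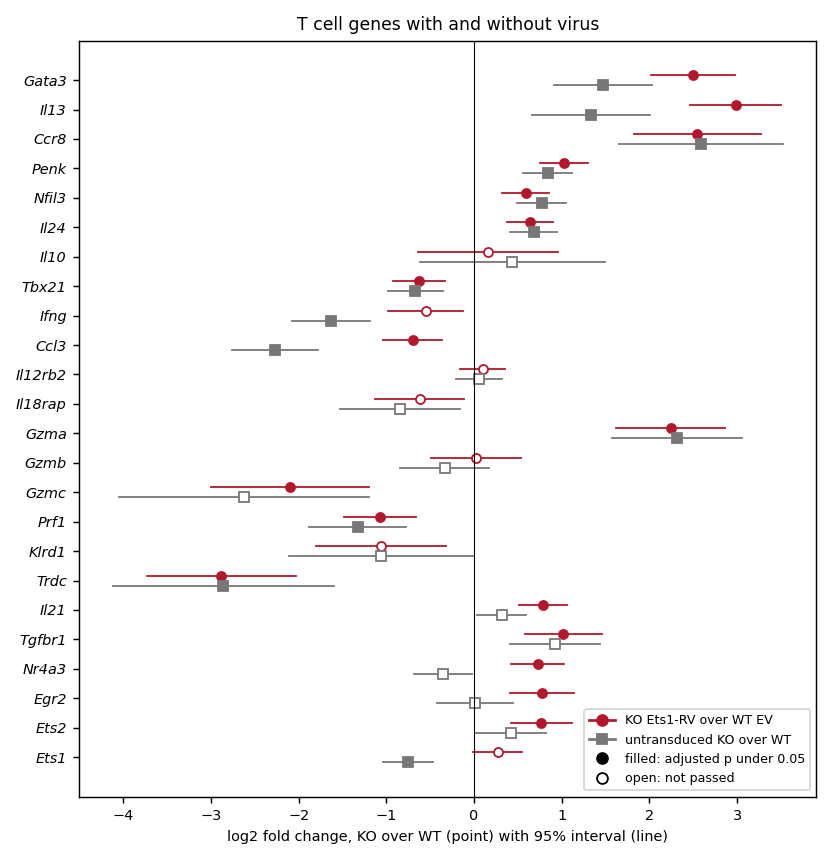
Log2 fold changes of 24 T cell genes (points) with 95% intervals (lines), for KO Ets1-RV over WT EV (red circles) and untransduced KO over WT (grey squares), where filled points passed the threshold. Il13 and Gata3 lie farther from 0 with virus (2.99 and 2.49) than without (1.33 and 1.47), Ifng and Ccl3 lie nearer to 0 with virus, and Trdc and Gzma are at almost the same place in both.

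Cytotoxic granule genes moved in both directions. Of 12 measured, 1 was higher and 2 were lower in KO Ets1-RV cells, against 0.452% and 0.406% of all genes. DESeq2 called 1 of the 12, and in edgeR 2 were higher and 2 lower at an unadjusted p under 0.05. Gzma, the gene of granzyme A, was at 60.5, 52.0, 169.7 and 187 CPM in KO Ets1-RV libraries and at 27.2, 19.9, 20.95 and 17.7 CPM in WT EV libraries. All KO Ets1-RV libraries were higher and the pair of B number 2 was far higher than the pair of B number 1, with log2 ratios of 3.18 and 1.22. The log2 fold change was 2.24 (SE 0.29, adjusted p = 0.0011), close to the 2.31 of untransduced cells (adjusted p = 0.0023). Gzmb, the gene of granzyme B, split by B number: it was at 691 and 719 CPM (B number 1) and 1685 and 1661 CPM (B number 2) in KO Ets1-RV libraries, against 1239 and 1199 CPM, then 1031 and 976 CPM in WT EV libraries. Its log2 ratio was -0.79 within B number 1 and 0.75 within B number 2, and its fold change over both was 0.02 (adjusted p = 0.986).

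Prf1, the gene of the pore-forming protein perforin, was at 10.7, 14.1, 14.4 and 18.2 CPM in KO Ets1-RV libraries and at 31.5, 32.8, 22.3 and 31.6 CPM in WT EV libraries. It was lower in all 4 KO Ets1-RV libraries (-1.08, SE 0.19, adjusted p = 0.0158). The Prf1 call ended in DESeq2 (adjusted p = 0.0517), without the WT EV sum of B number 1 (0.342), without the KO Ets1-RV sum of B number 1 (0.0693) and without WT EV library B2T2 (0.0583). Gzmc, another granzyme gene, was at 1.42, 0.88, 2.00 and 2.31 CPM in KO Ets1-RV and at 9.12, 9.74, 6.05 and 5.21 CPM in WT EV libraries. It fell by 2.10 on the log2 scale (adjusted p = 0.0263), a call that ended in 5 of the 24 alternatives, with adjusted p up to 0.466 without the WT EV sum of B number 1. Reads of granzyme genes can be shared between near-identical copies, so their values are uncertain. Of 5 NK-type receptor genes measured, 0 passed in edgeR or DESeq2 and 2 had an unadjusted p under 0.05. Klrd1, a C-type lectin receptor gene on that list, had -1.07 (adjusted p = 0.229).

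RNA of gamma-delta T cell genes stayed low in KO Ets1-RV cells. Trdc was at 0, 1.47, 1.00 and 1.03 CPM in KO Ets1-RV libraries and at 8.94, 7.35, 5.59 and 6.26 CPM in WT EV libraries, with no overlap. Its log2 fold change was -2.88 (SE 0.40, adjusted p = 0.0018), beside -2.86 in untransduced cells (adjusted p = 0.0215). Tcrg-C2, a gamma chain constant region, was at 0 to 0.36 CPM in KO Ets1-RV and at 1.04 to 3.26 CPM in WT EV libraries (adjusted p = 0.0305). Its call ended in 9 of the 24 alternatives, among them leaving out either WT EV sum. Tcrg-C4, another gamma chain constant region, was too low to test, with 1 count over the KO Ets1-RV libraries and 36 over the WT EV libraries. The 10 markers of the list summed to 1.78 to 3.23 CPM in KO Ets1-RV, 10.8 to 18.6 CPM in WT EV, 2.25 to 2.26 CPM in untransduced KO and 9.74 to 10.9 CPM in untransduced WT libraries. In such bulk RNA, fewer cells of a type and less RNA per cell cannot be told apart. The part of such cells in the other results was not tested.

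Markers of other cells were checked beside these results. Cd4 was at 409, 416, 314 and 313 CPM in KO Ets1-RV and at 425, 438, 409 and 421 CPM in WT EV libraries, overlapping (-0.23, adjusted p = 0.550). Summed CD8 T cell markers stood at 6.76 to 11.02 CPM in KO Ets1-RV and 6.26 to 10.7 CPM in WT EV libraries, and summed NK cell markers at 2.64 to 6.403 CPM and 3.82 to 5.76 CPM. Summed myeloid markers were at 5.003 to 9.40 CPM in KO Ets1-RV and 3.13 to 5.96 CPM in WT EV libraries. Erythroid and platelet markers reached at most 0.80 CPM in KO Ets1-RV and 1.49 CPM in WT EV libraries, and B cell markers were at 56.4 to 73.0 CPM in KO Ets1-RV and 45.9 to 72.4 CPM in WT EV libraries. Ncr1, a receptor gene of NK cells, had 0 counts in both groups. Few of these markers were abundant enough to test: 3 of 5 for CD8 T cells, 1 of 9 for NK cells and 1 of 12 for myeloid cells. For B cells it was 3 of 9, and for erythroid cells and platelets 0 of 9. No tested marker of these other cells passed the threshold in edgeR or DESeq2, and 0 had an unadjusted p under 0.05. With so few tested, this says little about such cells.

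Several genes outside the helper T cell programmes rose in KO Ets1-RV cells and kept their call under every one of the 24 alternatives. Nhsl1, an actin regulator gene, was at 100.4, 90.5, 76.4 and 65.1 CPM in KO Ets1-RV libraries and at 44.1, 42.5, 31.2 and 30.9 CPM in WT EV libraries. It was higher in all KO Ets1-RV libraries (log2 fold change 1.15, SE 0.15, adjusted p = 0.0011). Lgals3, the gene of the sugar-binding protein galectin 3, was at 42.4, 48.5, 59.0 and 59.7 CPM in KO Ets1-RV libraries and at 20.9, 26.2, 23.3 and 21.9 CPM in WT EV libraries. It rose by 1.18 (adjusted p = 0.00086), with no overlap. Nrn1, which encodes the small anchored protein neuritin, was at 86.1, 87.5, 92.0 and 92.3 CPM in KO Ets1-RV and at 46.0, 40.9, 40.5 and 41.4 CPM in WT EV libraries, without overlap (1.08, adjusted p = 0.0011).

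Gpm6b, a membrane glycoprotein gene on the X chromosome, was at 18.5, 17.9, 21.01 and 24.3 CPM in KO Ets1-RV libraries and at 5.21, 4.17, 5.12 and 7.65 CPM in WT EV libraries. All KO Ets1-RV libraries were higher (1.86, SE 0.22, adjusted p = 0.00086). Calcrl, the receptor component for the neuropeptide CGRP and for adrenomedullin, rose by 1.55 (adjusted p = 0.0011), and F2rl1, the protease-activated receptor 2, by 1.56 (0.0034). Gpm6b, Calcrl and F2rl1 did not pass in untransduced cells (0.87, 0.72 and 1.09) but passed in Th1 cells of the first experiment (0.69, 0.93 and 0.69). Sv2c, a synaptic vesicle glycoprotein gene, rose by 1.02 (adjusted p = 0.0035), a call that ended only without the WT EV sum of B number 1 (adjusted p = 0.0926).

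Among the lower genes, Iqsec1, Csf1, Ffar2, Trdc and Gm27162 kept their calls under all 24 alternatives. Iqsec1, an exchange factor gene for Arf GTPases, was at 25.6, 24.4, 28.4 and 20.2 CPM in KO Ets1-RV libraries and at 58.6, 61.6, 50.7 and 55.3 CPM in WT EV libraries. The groups were well apart (-1.18, SE 0.14, adjusted p = 0.00086), and the untransduced effect was -1.24. Csf1, the gene of macrophage colony-stimulating factor, was at 17.8, 17.9, 11.01 and 8.71 CPM in KO Ets1-RV libraries and at 35.6, 33.0, 34.9 and 34.1 CPM in WT EV libraries. It was lower in every KO Ets1-RV library (-1.33, adjusted p = 0.0027). Ffar2, a receptor for short-chain fatty acids, was at 8.90, 11.5, 11.4 and 11.3 CPM in KO Ets1-RV libraries and at 22.2, 28.2, 26.5 and 26.8 CPM in WT EV libraries, again without overlap (-1.24, adjusted p = 0.0042).

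Muc13, a transmembrane mucin gene, was at 17.1, 17.6, 16.2 and 17.2 CPM in KO Ets1-RV libraries and at 35.001, 32.8, 34.5 and 27.5 CPM in WT EV libraries, while untransduced KO libraries had 5.61 and 7.91 CPM and untransduced WT libraries 29.9 and 28.4 CPM. The KO Ets1-RV libraries thus lay between the untransduced KO and the WT libraries. Muc13 fell by 0.92 with virus (adjusted p = 0.0148) and by 2.19 without (0.00016), and the difference of 1.26 did not pass over all genes (adjusted p = 0.512). Sdcbp2, a PDZ protein gene, fell by 0.94 (adjusted p = 0.0043), Pdgfb, a growth factor chain gene, by 0.96 (0.0146), and Zbp1, a sensor of Z-form nucleic acids, by 0.85 (0.0148). Abi3, an adaptor gene of actin remodelling, fell by 1.05 (adjusted p = 0.0185), Marcksl1, an actin-binding protein gene, by 0.77 (0.0199), and Eng, a co-receptor gene for TGF-beta family ligands, by 2.05 (0.0252). These 7 calls each ended without the WT EV sum of B number 1 or 2, and the highest adjusted p values over the alternatives ran from 0.0551 for Sdcbp2 to 0.415 for Abi3.

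The difference between KO Ets1-RV and WT EV cells, in which genotype and insert vary together, was set beside the KO effect in untransduced cells. These contrasts share no library but come from the same fit. Of the same 11072 genes, 212 (1.91%) passed in untransduced KO against WT cells, 93 higher (0.84%) and 119 lower (1.07%). Of the 93 higher genes, 24 were also called higher in KO Ets1-RV cells. That is 25.8% of the untransduced list, against 0.452% of all genes, and 48% of the 50. Of the 119 lower genes, 23 were also called lower. That is 19.3% of the list, against 0.406% of all genes, and 51.1% of the 45. None was called in the opposite direction. Over the 93 the median log2 fold change was 0.52 with virus and 0.91 without, and 90 had the same sign. Over the 119 it was -0.35 with virus and -1.04 without, and 109 had the same sign. Over all genes tested the median with virus was -0.002. The 93 and the 119 genes were chosen for their untransduced effect, which raises the untransduced medians. The number of genes called alike in both comparisons, 47, was 20 or 27 without the WT EV sum of B number 1 or 2, 23 or 29 without the untransduced KO library of B number 1 or 2, and 31 or 15 without the untransduced WT library of B number 1 or 2.

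**Figure D3:**
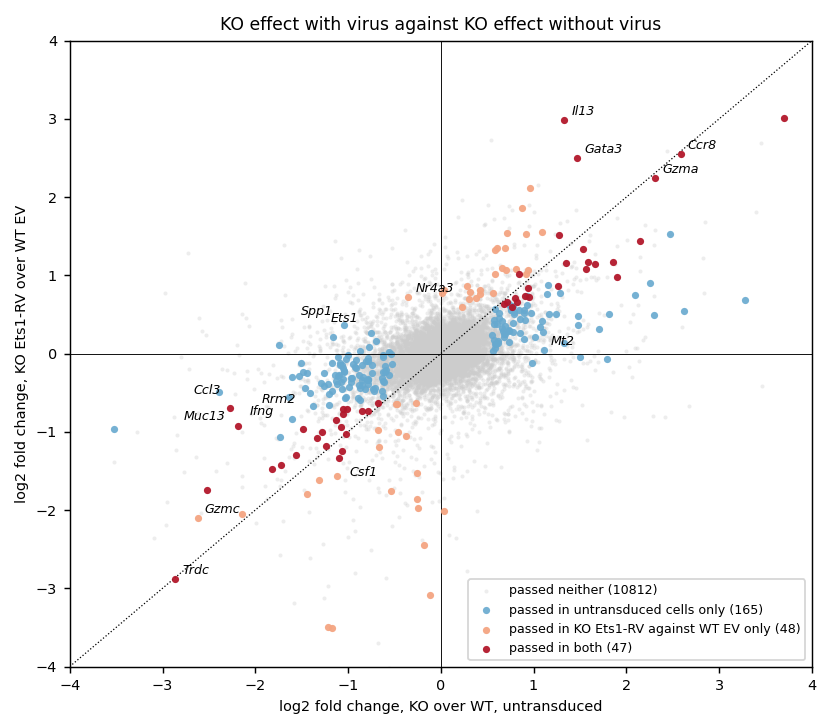
Log2 fold change of KO Ets1-RV over WT EV cells (vertical) against that of untransduced KO over WT cells (horizontal) for each tested gene, with 14 genes outside the range drawn. Dark red points passed in both comparisons (47 genes), light red points with virus only (48) and blue points in untransduced cells only (165). Il13 and Gata3 lie above the dotted line of equal effects, Ccr8, Gzma and Trdc on it, and Ifng, Ccl3 and Muc13 between it and the horizontal line at 0.

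The fold change of KO Ets1-RV over WT EV was tested against that of untransduced KO over WT, gene by gene. Of 11072 genes, 1 (0.00903%) passed for this difference, with 587 at an unadjusted p under 0.05. The gene that passed was Spp1, which encodes the secreted phosphoprotein osteopontin. Spp1 was at 229, 215, 205 and 184 CPM in KO Ets1-RV libraries and at 162, 158, 170 and 162 CPM in WT EV libraries, a fold change that did not pass (0.36, adjusted p = 0.316). In untransduced cells it was at 84.5 and 108 CPM in KO and at 186 and 206 CPM in WT libraries, where it fell by 1.04 (adjusted p = 0.0015). The KO libraries were therefore above WT with virus and below WT without, a difference of 1.40 (interval 0.98 to 1.83, adjusted p = 0.0296). DESeq2 called 3 genes for this difference and the fit without the block called 0. The count was 6 without the WT EV sum of B number 1 and 8 without the KO Ets1-RV sum or the untransduced KO library of B number 2. It was 0 without the KO Ets1-RV sum of B number 1, KO Ets1-RV library B2T1, the WT EV sum of B number 2, the untransduced KO library of B number 1 or either untransduced WT library. This contrast holds genotype, virus and insert together.

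Other genes with small p-values for that difference went both ways without passing. The metallothionein genes Mt1 and Mt2 had fold changes of -0.12 and 0.05 with virus but 0.99 and 1.11 in untransduced cells (adjusted p of the difference 0.143 for each). Casz1, a zinc finger factor gene, had -0.04 with virus and 1.498 without (0.512). Rrm2, a subunit of ribonucleotide reductase, had -0.44 with virus and -1.47 without (0.214). Ets1 itself had a difference of 1.02 (interval 0.62 to 1.42, adjusted p = 0.143). Nr4a3, a nuclear receptor gene induced by T cell receptor signals, was at 117, 124, 103 and 95.3 CPM in KO Ets1-RV libraries and at 74.5, 67.8, 58.2 and 64.6 CPM in WT EV libraries, without overlap. It rose by 0.72 (adjusted p = 0.0243), while in untransduced cells it had -0.35 (0.302). That call ended without the KO Ets1-RV sum of B number 1 or without the WT EV sum of B number 1 or 2, with adjusted p up to 0.253.

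Th1 cells of the first experiment, all of B number 1 and without virus, gave a further set of libraries. There 462 of 12616 genes (3.66%) passed for KO against WT, 272 higher (2.16%) and 190 lower (1.51%). Of the 218 higher genes that were also tested with virus, 27 were called higher in KO Ets1-RV cells. They are 12.4% of the 218, against 0.452% of all genes, and 54% of the 50. Of the 184 lower genes, 15 were called lower. They are 8.15% of the 184, against 0.406% of all genes, and 33.3% of the 45. A further 1 of the 184 was called higher, which was Nr4a3 with -0.92 in the first experiment. The total of 42 called alike was 19 or 22 without the WT EV sum of B number 1 or 2. Genes called in the same direction in all 3 comparisons numbered 15 higher and 11 lower. Il13, Gata3, Ccr8, Gzma, Lgals3 and Nhsl1 were among the higher ones, and Trdc, Gm27162, Iqsec1, Sdcbp2, Muc13, Prf1 and Ccl3 among the lower ones. A further 13 higher and 18 lower genes passed only in the comparison with virus, which does not show that their effects differ.

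In the other gene lists 0 to 3 members passed in each direction, beside 0.452% of all genes higher and 0.406% lower. Of 30 effector transcription factor genes, 3 were higher and 0 lower in KO Ets1-RV cells: Nfil3, Nr4a3 and Egr2, a zinc finger gene induced by T cell receptor signals (0.77, adjusted p = 0.0415). Ets2, the closest relative of Ets1, was at 36.3, 36.4, 29.2 and 31.5 CPM in KO Ets1-RV libraries and at 18.99, 21.7, 22.3 and 16.3 CPM in WT EV libraries. It was the 1 member of the 12 measured Ets family genes that rose (0.77, adjusted p = 0.0328). Il21, a cytokine gene of follicular helper T cells, rose by 0.78 (adjusted p = 0.0080), Tgfbr1, a receptor gene for TGF-beta, by 1.02 (0.0274), and Igfbp4, an insulin-like growth factor binding protein gene, by 0.84 (0.0199). Of 20 glycolysis and hypoxia genes 2 rose, Bnip3, a mitophagy gene (0.87, adjusted p = 0.0186), and Egln3, an oxygen-dependent prolyl hydroxylase gene (0.66, 0.0273). Egr2, Ets2 and Tgfbr1 lost their calls in 12, 10 and 8 of the 24 alternatives, Bnip3, Egln3 and Igfbp4 in 5, 4 and 2, and Il21 in 1, each without a WT EV sum among others.

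Of 35 T cell receptor signalling genes and 25 interferon gamma response genes measured, 0 passed in edgeR or DESeq2, with medians of 0.11 and -0.17, and 5 of each list had an unadjusted p under 0.05. For 9 of the 35 receptor signalling genes the KO Ets1-RV libraries all lay above the WT EV libraries and for 1 they lay below. Of 25 interferon gamma response genes 4 lay below and 0 above. Over all genes tested, 6.11% lay above and 5.36% below. Gbp2, a guanylate-binding protein of the interferon response, was at 148, 147, 117 and 128 CPM in KO Ets1-RV and at 180, 169, 125 and 136 CPM in WT EV libraries, overlapping (-0.18, adjusted p = 0.678). Of 19 type I interferon response genes measured, 0 were higher and 1, Zbp1, was lower, against 0.452% and 0.406% of all genes. Of the 19, 16 had negative fold changes (median -0.22, and -0.15 in untransduced cells), and DESeq2 called 0. Pdcd1, the gene of the inhibitory receptor PD-1, had -0.36 (adjusted p = 0.379). Of 27 cell cycle genes 0 passed with virus in edgeR or DESeq2, 9 had an unadjusted p under 0.05, and 25 had negative fold changes (median -0.21), while 0 were higher and 6 lower in untransduced KO cells (median -0.67). The 6 were Rrm2, Ccna2, Kif11, Top2a, Ccnb1 and Mcm5. The lists of cytokine receptors, Treg genes, inhibitory receptors, sterol synthesis, survival, handling stress and mitochondrial genes had 0 members called by either tool, and 0 to 6 members of each had an unadjusted p under 0.05.

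**Figure D4:**
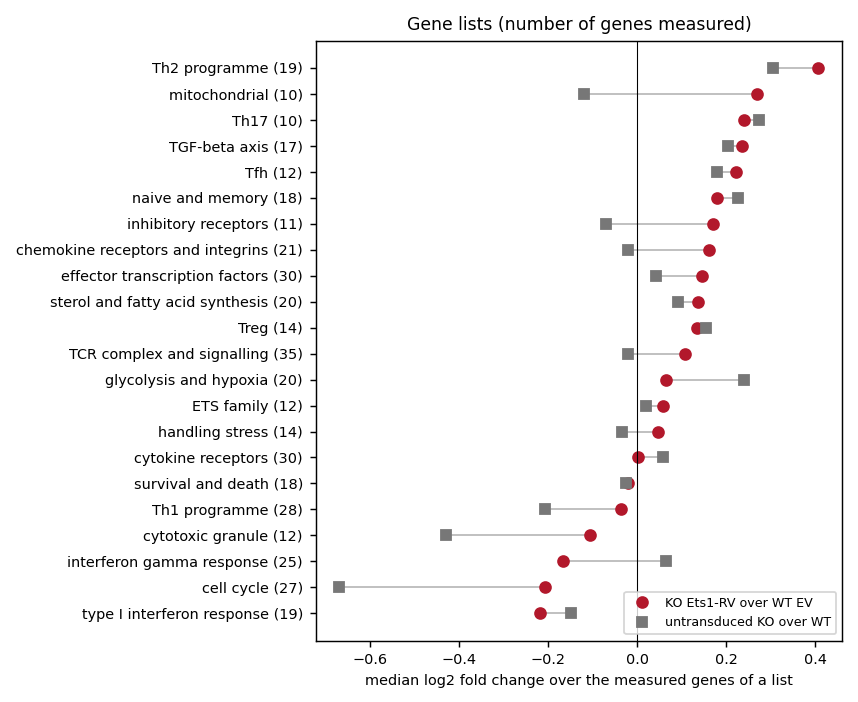
Median log2 fold change over the measured genes of each list (number in brackets) for KO Ets1-RV over WT EV (red circles) and untransduced KO over WT (grey squares), for lists with at least 10 genes measured. The Th2 programme has the highest median with virus (0.41) and the type I interferon response list the lowest (-0.22). The cell cycle list lies at -0.21 with virus and -0.67 in untransduced cells.

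Within the KO Ets1-RV group many of these genes differed between B numbers, in both directions. The libraries of B number 1, which had more Ets1 (467 and 447 CPM, against 384 and 385 CPM in B number 2), also had more Ifng (937 and 983, against 560 and 584 CPM) and more Tbx21 (125 and 107, against 73.8 and 76.1 CPM). They had less Gata3 (33.5 and 29.7, against 72.2 and 76.4 CPM), less Gzma (60.5 and 52.0, against 169.7 and 187 CPM) and less Ccr8 (7.12 and 7.93, against 15.6 and 19.5 CPM). Other called genes did not follow that order. Penk, higher in KO Ets1-RV than in WT EV cells, was higher in B number 1 (453 and 486, against 312 and 311 CPM), as was Nhsl1 (100.4 and 90.5, against 76.4 and 65.1 CPM), while Prf1, lower in KO Ets1-RV cells, was lower in B number 1 (10.7 and 14.1, against 14.4 and 18.2 CPM). Muc13 (17.1 and 17.6, against 16.2 and 17.2 CPM) and Nrn1 (86.1 and 87.5, against 92.0 and 92.3 CPM) were near each other in both. These genes were picked after their values were seen. In WT EV libraries Ets1 differed by less between the B numbers (352 and 344, against 345 and 355 CPM). Each group has 2 sums, so no test was made, and Xist and Ddx3y differed between the same libraries. In untransduced KO cells Ets1 was at 221 CPM in B number 1 and 245 CPM in B number 2, and Gata3 at 22.5 and 40.7 CPM. There Tbx21 was at 97.9 and 77.5 CPM and Ifng at 302 and 435 CPM, in the same order. Tbx21 was also higher in B number 1 in WT EV cells (151 and 152, against 123 and 148 CPM). In untransduced WT cells it was at 150 and 128 CPM. Ifng was lower in B number 1 in WT EV cells (1097 and 1069, against 1177 and 1152 CPM). In untransduced WT cells it was at 1104 and 1171 CPM.

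Small noncoding RNAs made up 11 of the 45 lower genes, with log2 fold changes of -3.51 to -1.42. They were 3 copies of 5S ribosomal RNA, 5 small nuclear RNAs, 2 small nucleolar RNAs and 1 Y RNA. Of these 11, 1 was also called lower in untransduced KO cells and 0 in the first experiment, against 20 and 12 of the 31 protein-coding lower genes. The untransduced KO libraries of B number 1 and 2 were far apart in such RNAs. Snord22, picked after its values were seen, was at 208 and 37.3 CPM there, against 133 and 105 CPM in untransduced WT libraries. A missing call in untransduced cells therefore does not show that the levels were equal. The 1 small RNA also called in untransduced cells was Rnu11, a spliceosomal RNA of the minor spliceosome, named after its values were seen. It was at 21.002, 30.3, 34.4 and 34.6 CPM in KO Ets1-RV and at 67.8, 102.4, 75.9 and 72.3 CPM in WT EV libraries. Such RNAs come in near-identical copies and are short for this library type, so their values are uncertain. The share of unmapped pairs also separated the groups (41.9% to 46.4% in KO Ets1-RV, 47.9% to 52.2% in WT EV), and its part in these 11 results was not tested.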

How the data were processed

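Per the labels' protocols, libraries were strand-specific, made from total RNA (SMARTer Pico kit) and read in pairs. The authors deposited raw read counts for 45706 genes, and the submitters' processing notes name STAR 2.5.0a and GRCm38. A further 4 lines of each table name no gene. These lines took 64.0% to 72.3% of the pairs tabulated in the 8 libraries and stayed out of sizes and tests. Counts of the strand with 94.1% to 95.2% of stranded gene counts were used. Symbols and coordinates came from GENCODE M21 of GRCm38, a release not named in the sources used here, which matched 45143 identifiers. Levels and counts have no molecular identifiers, so limits at 0 cover counting error only.

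Groups came from titles and labels. A further 8 libraries, whose title and transduction label name different viruses, entered no comparison. Their Gm27162 counts also go against the genotype in their titles. Libraries of a B number were summed, and 8 sums of 4 groups were fitted together with B number as a block, since 2 sums per group alone leave 1 residual degree of freedom. Genes were tested by quasi-likelihood with edgeR 4.0.16 (R 4.3.3), after TMM scaling and filterByExpr. Each adjusted p comes from it, by Benjamini-Hochberg over every gene tested, unless another tool is named, and the threshold was 0.05. The first Th1 experiment was fitted with its Th2 libraries. The labels do not tie libraries to animals or cultures. By their Xist and Ddx3y RNA, the 2 sums of each fitted group came from mice of different sex, and so from different animals. The number of animals in a sum is not given, and p-values measure the spread between sums left after the block. In the first experiment, all of B number 1, the spread between libraries may be technical. Pairs of libraries with the same B number differed by more than sampling noise (chi-square per degree of freedom 1.26 to 1.99). The scripts were tested on simulated counts.

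Members, gene lists and the rule for named genes were chosen with earlier results of these data known. Named were the marker genes, Ets1 and Gm27162, the 12 higher and 12 lower called genes of smallest p with non-overlapping libraries, a mean raw level of at least 5 CPM in the higher group and a protein-coding or T cell receptor annotation, called and anchor genes of lists, up to 8 genes shared with each other comparison, and the 8 with the smallest p for the difference. Alternatives were DESeq2 1.42.0, other scaling factors, no low-count filter, no block, unsummed libraries, only the 4 sums compared, counts without strand, and leaving out sums or libraries. Promoters came from RefSeq (GRCm38.p6).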

Additional observations from a re-analysis of the deposited data

Results flagged for a closer look

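Spp1, the gene of osteopontin, had log2 fold changes of 0.36 for KO Ets1-RV over WT EV and -1.04 for untransduced KO over WT. They differed by 1.40 (adjusted p = 0.0296 in the edgeR test of the difference).

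In 6 of 116 sets of 4 libraries of a named gene, 1 library stood apart from the other 3. Chance does so in about 1 of 20 sets of 4 independent values. These libraries come in pairs of a B number, so that share may not hold here. Nrn1 was at 46.0 CPM in WT EV library B1T1, against 40.5 to 41.4 CPM in the other 3. Ffar2 was at 8.90 CPM in KO Ets1-RV library B1T1, against 11.3 to 11.5 CPM. Prf1 was at 22.3 CPM in WT EV library B2T1, against 31.5 to 32.8 CPM, and in the same library Tbx21 was at 122.9 CPM, against 148 to 152 CPM, and Tgfbr1 at 10.2 CPM, against 6.604 to 7.07 CPM. Bnip3 was at 91.7 CPM in KO Ets1-RV library B1T2, against 75.6 to 77.6 CPM. Prf1 and Tbx21 were thus lowest, and Tgfbr1 highest, in a WT EV library nearest to the KO Ets1-RV values.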

How the results depend on the processing

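Of 39 named genes called, 16 kept their call under all 24 alternatives: Il13, Gata3, Ccr8, Gzma, Penk, Lgals3, Nrn1, Nhsl1, Gpm6b, Calcrl, F2rl1, Trdc, Iqsec1, Csf1, Ffar2 and Gm27162. No call changed direction. Leaving out the WT EV sum of B number 1 ended 21 of the 39 calls, that of B number 2 ended 18, the KO Ets1-RV sums 12 and 13, DESeq2 15 and the fit without the block 9.

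The 95 genes called became 37 in DESeq2, 276 with no low-count filter, 62 with no replicate block, 224 with only the 4 sums compared, 676 with libraries unsummed, and 45 to 126 when a sum or library was left out. All 95 were called again with no filter, with the 4 sums alone and unsummed, and 62 without the block. Unsummed fits treat libraries of one B number as separate samples. The 212 genes called in untransduced cells became 118 in DESeq2, 469 unfiltered, 137 without the block, 442 unsummed and 44 to 366 with a sum or library left out. The 47 genes called alike in both became 18, 115, 28, 163 and 15 to 55 in the same order. The 42 called alike with the first experiment became 20 in DESeq2, 76 unfiltered, 65 with the 4 sums alone, 124 unsummed and 19 to 46 with a sum or library left out. The 462 of the first experiment became 835 unfiltered and 176 to 469 with a library left out. The 1 gene called for the difference became 3 in DESeq2, 32 unfiltered, 0 without the block, 9 unsummed and 0 to 8 with a sum or library left out. The cause of these changes was not tested.

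Ets1 kept its direction (0.10 to 0.43) and passed only with libraries unsummed (0.27, adjusted p = 0.0367). Ifng, not called in the main fit, passed in 3 of the 24 alternatives, and Il18rap, Rrm2 and Spp1 each passed in 1. Genes that did not pass changed sign with libraries left out: Casz1 ran from -0.36 to 0.38, Gzmb from -0.64 to 0.58 (and was -0.023 with only the 4 sums), Il10 from -0.62 to 0.80 and Mt2 from -0.051 to 0.14.

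Deviations of the sums of B number 1 from those of B number 2 correlated between groups by 0.04 to 0.33 across genes, and by 0.08 between KO Ets1-RV and WT EV, and the labels do not say what a B number marks. With 2 sums per group and 1813288 to 6844944 gene counts per library, genes near the count filter had wide intervals, and a p above the threshold does not show that levels were equal.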

Other observations

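Further genes passed in KO Ets1-RV against WT EV cells and are named here after their values were seen. Akr1c18, a hydroxysteroid dehydrogenase gene, was at 2.14, 3.23, 7.60 and 5.38 CPM in KO Ets1-RV libraries, against 0, 0, 0.47 and 0 CPM in WT EV libraries (adjusted p = 0.0018). Cyp11a1, the enzyme that starts steroid synthesis from cholesterol, was at 24.2, 28.2, 47.6 and 53.8 CPM in KO Ets1-RV libraries and at 11.4, 11.3, 17.7 and 20.9 CPM in WT EV libraries, higher in each (log2 fold change 1.35, adjusted p = 0.0148). Dsg2, a desmosomal cadherin gene, rose by 3.01 (adjusted p = 0.0043) and by 3.70 in untransduced cells. Cd24a, a surface glycoprotein gene, rose by 1.17 (adjusted p = 0.0076), Tnfrsf9, the co-stimulatory receptor 4-1BB, by 0.66 (0.0194) and Dpp4, the surface peptidase CD26, by 0.72 (0.0311). Lower were App, the amyloid precursor protein gene (-1.48, adjusted p = 0.0258), Ifitm3, an interferon-induced membrane protein gene (-1.005, 0.0297), Hopx, a homeodomain-only cofactor gene (-0.71, 0.0409), and Icam1, an adhesion ligand gene (-0.64, 0.0415).

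The 8 libraries outside the groups gave these raw values. In the 4 titled as KO cells with the empty virus, whose transduction label names the Ets1 virus, Ets1 was at 594 and 565 raw CPM (B number 1) and 582.1 and 632 raw CPM (B number 2). Their Gm27162 counts were 5, 9, 17 and 13, and Il13 was at 4.78, 3.30, 5.48 and 3.50 raw CPM. In the 4 titled as WT cells with the Ets1 virus, whose label names the empty virus, Ets1 was at 191, 189, 269 and 252 raw CPM. Their Gm27162 counts were 0 in each, and Il13 was at 13.8, 14.9, 20.6 and 20.8 raw CPM. For comparison, raw Ets1 was 384 to 469 CPM in KO Ets1-RV and 314 to 391 CPM in WT EV libraries. Gm27162 had 0 counts in every KO Ets1-RV and untransduced KO library and 8 to 21 counts in each WT EV library. In both sets of 4 the Gm27162 counts thus go against the titled genotype, so these values should not be read by title as KO or WT. These libraries entered no test.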
